A study of Homo sapiens with 90 samples.

Results

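Imazalil, an imidazole, and fenbuconazole, a triazole, were compared at 10 µM in A673 cells, a human Ewing sarcoma line that carries the EWSR1-FLI1 fusion gene. The comparison used the 54 arrays of cells treated with either azole, of 90 array columns in the series. For each azole, the 3 arrays at 10 µM were set against the 24 arrays at its 8 lower concentrations, which ran from 0.001 to 3 µM, and the change found in imazalil was then compared with the change found in fenbuconazole. All of these cells had been plated at 26000 per well and exposed for 24 h in medium with 0.2% DMSO, so that both sides of each comparison held an azole and the same amount of vehicle. The 27 arrays of 2,4-D, the remaining chemical of the series, and the vehicle arrays were left out of the main comparison. The vehicle arrays are 3 common controls that stand in the series as 9 columns, because they were normalized again with each chemical's set. Each concentration had 3 arrays, numbered 1 to 3 in the labels. By the methods, replicates were biological, each made in an experiment of its own from another batch of cells. The serial numbers in the labels run in 1 unbroken series per replicate number. A single established line was used, so nothing here speaks for other cells.

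Azole fungicides act through a ring nitrogen that binds the heme iron of lanosterol demethylase (CYP51), an enzyme of sterol synthesis that fungi and animals share. When sterol falls in animal cells, the transcription factor SREBP2 raises the genes of cholesterol synthesis and uptake, CYP51A1 among them. Azoles can also bind other cytochrome P450 enzymes and nuclear receptors such as PXR, CAR and PPARA, which control genes of foreign compound and fatty acid metabolism. The ring is one difference between imazalil and fenbuconazole, but the molecules differ in other parts too, and a difference between them cannot be assigned to the ring. They made up 1 pair, compared at 9 matched concentrations.

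Levels are log2 values from robust multi-array averaging (RMA), which had been run on each chemical's set of columns separately. A level therefore could not be compared between the azoles. Each change below is a difference within a set, where a log2 change of 1 is a doubling of the signal. The difference between azoles sets such changes against each other, and so also depends on the scale of each set. Over 13051 probe sets with a mean level of at least 6, the slope of fenbuconazole levels on imazalil levels was 1.07. The main fit did not rescale changes for this. The median of an array was 3.34 to 3.39 for imazalil and 2.76 to 2.83 for fenbuconazole. The median residual SD of a probe set was 0.14 in the imazalil set and 0.16 in the fenbuconazole set. Among brighter probe sets it was 0.09 and 0.12, so that arrays varied more in fenbuconazole. For each probe set the main fit used 1 estimate of the spread for both azoles, so the SEs and p-values below do not carry this. All 8 measured markers of the Ewing sarcoma line lay at or above the 89.9th percentile of expression in both sets. None of the 8 hepatocyte and none of the 6 blood markers reached the 80th percentile, while 1 of 9 breast and 3 of 7 fibroblast markers did. The mean level of the fibroblast markers ranged from 5.60 to 5.83 on the 10 µM arrays and from 5.54 to 5.84 on the other arrays of imazalil, and from 4.96 to 5.30 and from 4.89 to 5.32 in fenbuconazole. No marker in any of these lists passed the test of the difference between azoles. Within each replicate the serial numbers in the labels followed the order of concentrations, and those of imazalil came after those of fenbuconazole, so that this order and the concentration cannot be told apart.

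In the main fit, imazalil and fenbuconazole differed in the response of CPT1A, a call that was kept in 7 of 20 alternative settings. CPT1A is the carnitine palmitoyltransferase that admits long-chain fatty acids to mitochondria for oxidation, and it is a target gene of PPAR receptors. One of its probe sets, 203633_PM_at, was the only 1 of 54613 to pass the test of the difference (0.00183% of those tested; adjusted p under 0.05 in limma with Benjamini-Hochberg adjustment). In imazalil, its level on the 24 arrays at lower concentrations had a minimum of 8.25, a median of 8.53 and a maximum of 8.99, and on the 10 µM arrays it was 9.06, 9.38 and 9.13 in replicates 1 to 3. All 3 arrays at 10 µM thus lay above every array at a lower concentration. In fenbuconazole the lower concentrations ran from 7.50 through a median of 7.75 to 8.04, and the 10 µM arrays, at 7.57, 7.79 and 7.69, fell inside that range.

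Against the same replicate's lower concentrations, CPT1A rose in imazalil by 0.51, 0.72 and 0.67 and changed in fenbuconazole by -0.12, -0.12 and 0.00. The fitted change was 0.63 ± 0.09 in imazalil (SE; 1.55-fold; adjusted p = 0.000114, limma) and -0.08 ± 0.09 in fenbuconazole (adjusted p = 0.882, limma). The difference between azoles was 0.71 ± 0.13 (SE; 95% interval 0.45 to 0.97; adjusted p = 0.0467, limma), a ratio of 1.64. This call stood close to the threshold. Without the replicate number as a block, the difference was the same size with an adjusted p of 0.244. The adjusted p was 0.113 with a separate variance per azole, 0.383 with array weights and 0.0639 after a second quantile normalization (limma). The call was kept in 7 of 20 alternative settings, with values from 0.65 to 0.84 and adjusted p from 5.18e-06 to 0.868. It was lost when any 1 of the 6 arrays at 10 µM was left out (0.67 to 0.77; adjusted p from 0.0787 to 0.605) and when any 1 of the 3 replicate numbers was left out (0.65 to 0.75; adjusted p from 0.196 to 0.868). In a bulk RNA sample, fewer cells of a kind and less RNA per cell cannot be told apart.

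In imazalil, all 3 replicates of CPT1A also stood above the mean at 1 and at 3 µM, where no probe set passed the test of the difference. Relative to the mean of the 8 lower concentrations, it stood at 0.21 ± 0.04 (SD, n = 3) at 1 µM and at 0.33 ± 0.03 at 3 µM. In fenbuconazole it stood at -0.05 ± 0.09 and -0.05 ± 0.13 at those concentrations. On a line through the 9 concentrations, CPT1A rose by 0.16 per 10-fold step in imazalil (adjusted p = 4.63e-05, limma), while the fenbuconazole slope was -0.03. The slopes differed by 0.18 ± 0.03 (adjusted p = 0.00552, limma), and CPT1A was again the only probe set past the threshold (0.00183%). In the test of slopes, 2 probe sets passed in imazalil and 2 in fenbuconazole (0.00366% each). No probe set passed the test of the slope difference without the block, or without replicate 2.

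The remaining CPT1A probe sets gave differences of the same sign that did not pass. Probe set 203634_PM_s_at rose in imazalil by 0.81, 0.88 and 0.63 in replicates 1 to 3 (fitted change 0.77, adjusted p = 0.0056, limma), and its values in fenbuconazole were -0.55, -0.07 and 0.05. Its difference was 0.96 ± 0.19 (95% interval 0.58 to 1.35; adjusted p = 0.143). The differences of 210687_PM_at and 210688_PM_s_at were 0.41 (95% interval 0.07 to 0.75) and 0.49 (95% interval 0.12 to 0.86). Levels of 210687_PM_at were low, with means at 10 µM of 3.98 in imazalil and 3.03 in fenbuconazole. Its changes in imazalil were -0.0014, 0.45 and 0.29 in replicates 1 to 3, so that replicate 1 did not rise. For each of the 4 probe sets, every imazalil replicate lay above every fenbuconazole replicate, as it did for 4.65% of all probe sets tested, beside 4.49% in the opposite direction.

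**Figure D1:**
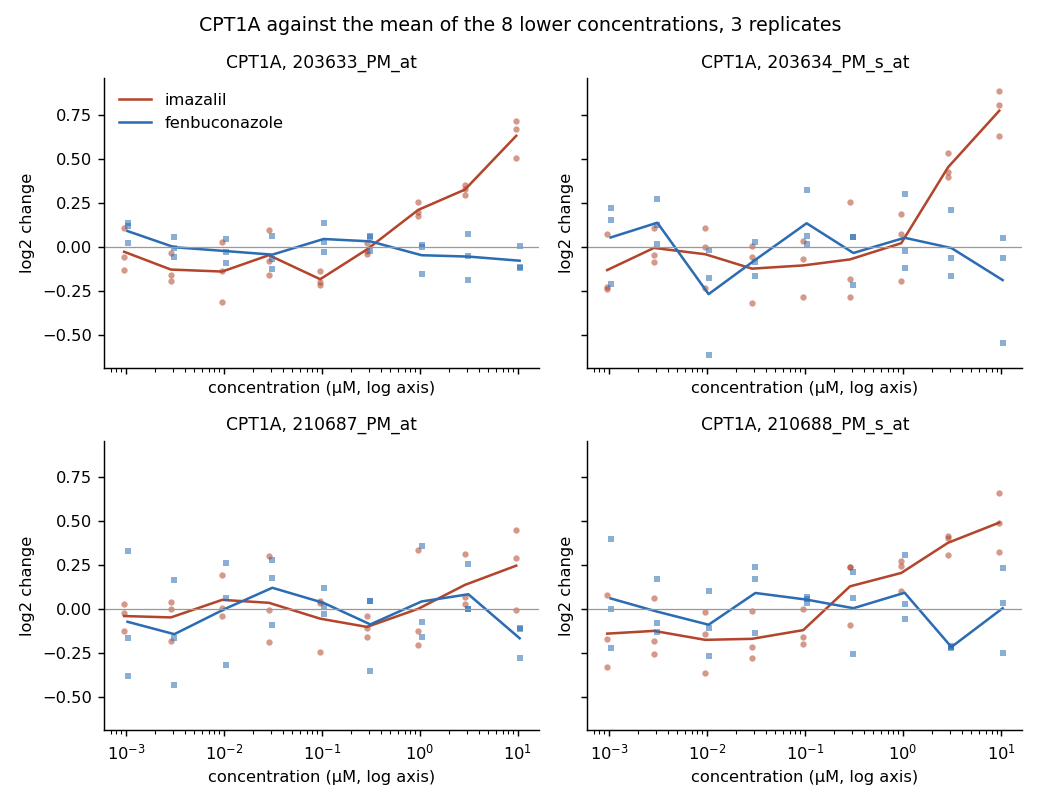
Log2 change of the 4 CPT1A probe sets (one panel each) against the concentration in µM on a log axis, with points for the 3 replicates of imazalil (circles) and fenbuconazole (squares) and lines for their means. Each value is relative to the mean of the same replicate's 8 lower concentrations. For 203633_PM_at the imazalil line climbs from 0.21 at 1 µM to 0.63 at 10 µM, while the fenbuconazole line ends at -0.08.

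The promoter of CPT1A is shown because this was the only gene whose difference between azoles passed the test. Its 250 bases before the RefSeq start (GRCh38.p14, chr11:68844278-68844527, minus strand, read 5′ to 3′) held none of the motifs searched, which says only that these letters were not in this window. Both strands were searched for the E-box CACGTG, the carbohydrate response element, which is a spaced pair of such E-boxes, the C/EBP-ATF element TGATGNAAN, the EGR site GCGNGGGCG, the sterol element TCACNCCAC and the CArG box of serum response factor. No PPAR element was searched. The pair of E-boxes was searched only as exact copies at a fixed spacing, a form that 1 of 35116 promoter windows held. Looser forms of the carbohydrate response element were not searched, so whether the CPT1A window holds this element was not tested.
CPT1A: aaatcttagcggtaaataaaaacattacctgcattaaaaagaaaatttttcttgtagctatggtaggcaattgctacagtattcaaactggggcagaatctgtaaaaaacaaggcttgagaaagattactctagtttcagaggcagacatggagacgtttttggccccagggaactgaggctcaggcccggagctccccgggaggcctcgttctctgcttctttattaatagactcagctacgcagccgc

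Among the PPAR target genes, which serve fatty acid transport, oxidation and storage, 15 of 20 listed were measured. In 13 of these the change was higher in imazalil than in fenbuconazole, against 10183 of all 19774 genes, and the list's median difference was 0.07, against 0.00 over all genes. CPT1A was the only member whose difference passed, and the only one that passed as higher in imazalil alone, beside 0.0152% of all genes higher there and 0.0253% in either direction. The member next in size was SLC25A20, the carnitine-acylcarnitine carrier that works beside CPT1A in the mitochondrial membrane. Its changes were 0.37, 0.08 and 0.34 in imazalil and -0.18, -0.11 and -0.24 in fenbuconazole, so the replicates did not overlap. Its difference of 0.44 ± 0.14 (95% interval 0.16 to 0.72) had an adjusted p of 0.713 (limma).

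Other genes of fatty acid use gave smaller values. ECH1, an auxiliary enzyme of beta-oxidation, had a difference of 0.21 (95% interval 0.03 to 0.38). The difference was 0.06 (95% interval -0.18 to 0.30) for PDK4, a kinase that holds back pyruvate oxidation, and 0.07 (95% interval -0.28 to 0.41) for ANGPTL4, a secreted lipase inhibitor. It was -0.02 (95% interval -0.21 to 0.17) for PLIN2, which coats lipid droplets. None of these PPAR targets passed in either azole, and the activity of the receptors was not tested. TXNIP, which is also in the list, fell in both azoles. PPARA itself, from the list of nuclear receptors, had a difference of -0.33 (95% interval -0.68 to 0.02).

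**Figure D2:**
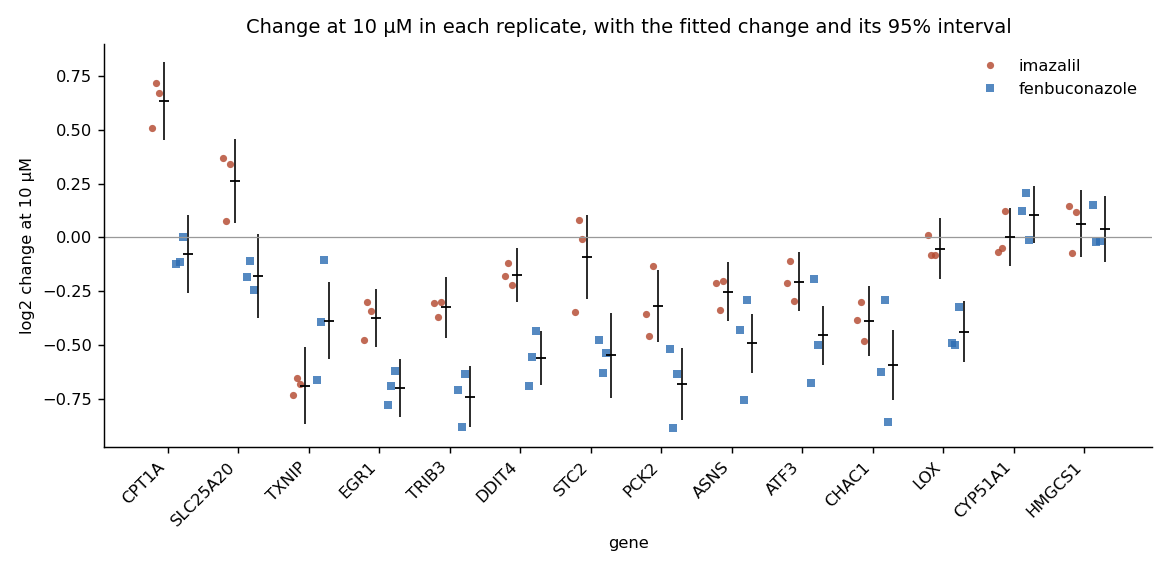
Log2 change at 10 µM against the 8 lower concentrations (vertical axis) for 14 genes, with a point for each of the 3 replicates of imazalil (circles) and fenbuconazole (squares) and a bar for the fitted change with its 95% interval. CPT1A and SLC25A20 lie higher in imazalil without overlap, TXNIP is low in both, and the fitted changes from EGR1 to LOX are lower in fenbuconazole.

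TXNIP and EGR1 fell in both azoles, and they were the only genes to pass in each azole taken alone. Against its own lower concentrations, 15 probe sets passed in imazalil (0.0275%), 9 of them higher (0.0165%) and 6 lower (0.0110%), and 154 in fenbuconazole (0.282%), 46 of them higher (0.0842%) and 108 lower (0.198%). The 5 probe sets found in both counts were 3 of TXNIP and 2 of EGR1, which is 33.3% of the imazalil count and 3.25% of the fenbuconazole count. The azoles shared no reference arrays in this comparison. These counts rested in part on single arrays. Without replicate 2 at 10 µM, 1 probe set passed in imazalil and 34 passed in fenbuconazole. Without replicate 3 at 10 µM, the counts were 45 and 67. With the 3 common vehicle arrays as the reference, which both azoles then share, the counts were 2 and 31. With a separate variance per azole they were 25 in imazalil and 83 in fenbuconazole.

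TXNIP binds thioredoxin and restrains glucose uptake, and it is a well-known target of the glucose sensor MondoA. On probe set 201009_PM_s_at, its levels in imazalil ran from 6.85 through a median of 7.20 to 7.47 at lower concentrations and were 6.37, 6.65 and 6.46 at 10 µM, below all others. In fenbuconazole they ran from 5.85 through 6.34 to 6.73 and were 5.65, 6.15 and 6.06, so that only replicate 1 fell below the range of the lower concentrations. The change was -0.69 ± 0.09 in imazalil (adjusted p = 2.12e-05, limma) and -0.39 ± 0.09 in fenbuconazole (adjusted p = 0.0343, limma). The difference was -0.30 (95% interval -0.56 to -0.05; adjusted p = 0.854, limma) and replicates overlapped. On the other probe sets of TXNIP it was -0.17 (95% interval -0.48 to 0.13) and -0.15 (95% interval -0.44 to 0.14). Of ARRDC4, its closest relative among MondoA targets, the changes were -0.35 in imazalil and -0.41 in fenbuconazole, and neither passed.

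EGR1 is an immediate early transcription factor that rises within minutes of ERK signalling. On probe set 201694_PM_s_at its levels in imazalil ran from 8.98 through 9.19 to 9.36 at lower concentrations and were 8.71, 8.83 and 8.94 at 10 µM. In fenbuconazole they ran from 7.69 through 8.02 to 8.47 and were 7.25, 7.15 and 7.54 at 10 µM. In both sets the 10 µM arrays lay below all arrays at lower concentrations. The change was -0.37 ± 0.07 in imazalil (adjusted p = 0.00662, limma) and -0.70 ± 0.07 in fenbuconazole (adjusted p = 6.03e-10, limma). The fall was smaller in imazalil by 0.32 (95% interval 0.13 to 0.51; adjusted p = 0.639, limma), and the replicates did not overlap. Probe set 227404_PM_s_at gave a difference of 0.30 (95% interval 0.05 to 0.54), but 201693_PM_s_at, which lies at a lower level, gave -0.01 (95% interval -0.30 to 0.27).

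The promoter of EGR1 is shown because the gene fell in both azoles and its control by serum response factor is well known. Its 250 bases (GRCh38.p14, chr5:138465229-138465478, plus strand) held 2 CArG boxes, from bases 146 and 168, and 1 EGR site, from base 53, all in capitals. A CArG box was held by 1.16% and an EGR site by 8.41% of 35116 promoter windows of this length. A match is a description of the letters and was not tested as a site.
EGR1: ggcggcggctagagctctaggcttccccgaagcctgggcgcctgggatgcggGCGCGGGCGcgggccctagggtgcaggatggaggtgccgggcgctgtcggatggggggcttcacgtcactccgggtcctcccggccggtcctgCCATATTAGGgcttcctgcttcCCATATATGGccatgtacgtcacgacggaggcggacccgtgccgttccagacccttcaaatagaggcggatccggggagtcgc

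Genes near EGR1 gave values of the same kind. Of 19 measured immediate early genes, each read on its brightest probe set, 3 passed in fenbuconazole, all lower, and 0 in imazalil, against 0.339% of all genes lower in fenbuconazole. They were EGR1, ATF3 and JUN, a subunit of AP-1, at -0.28 in fenbuconazole and -0.06 in imazalil. The difference was 0.38 (95% interval 0.07 to 0.68) for EGR4 and 0.01 (95% interval -0.36 to 0.38) for EGR3. In the list of 16 genes that report or dampen ERK signalling, the median change was -0.08 in imazalil and -0.21 in fenbuconazole, where ETV5 (-0.38) and SPRY2 (-0.39) passed. SPRY2, a feedback inhibitor, differed by 0.26 (95% interval 0.02 to 0.50) and DUSP4, an ERK phosphatase, by 0.27 (95% interval 0.02 to 0.51). The differences of DUSP6, SPRY4 and ETV4 were 0.14, 0.12 and -0.14, with 95% intervals that all included 0. None of the differences in these lists passed.

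**Figure D3:**
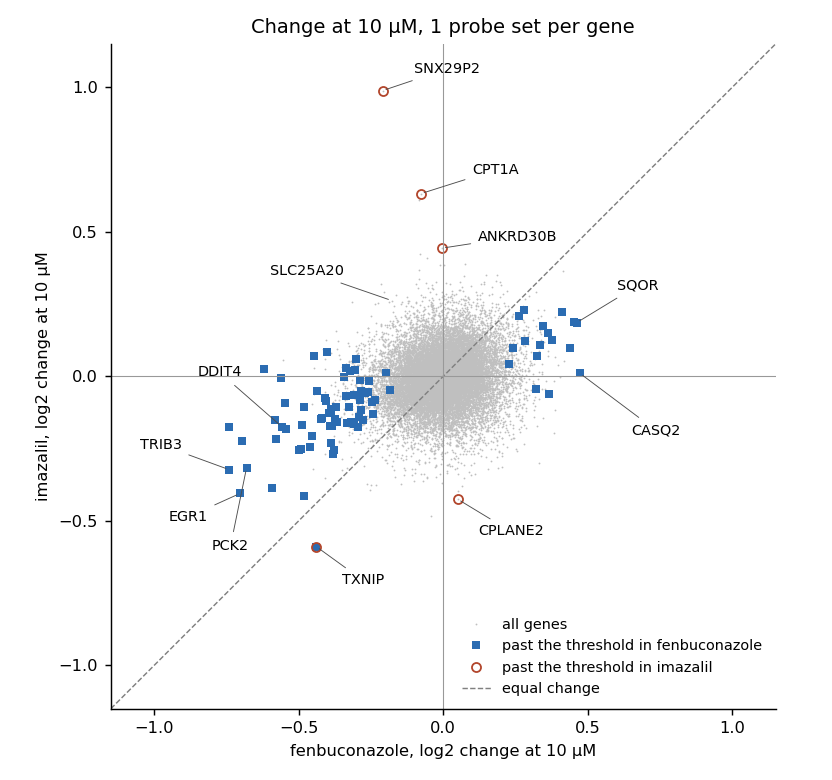
Log2 change at 10 µM in imazalil (vertical axis) against that in fenbuconazole (horizontal axis) for 19774 genes with 1 probe set each. Squares passed in fenbuconazole, open circles in imazalil, and the dashed line marks equal change. CPT1A stands high in imazalil near 0 in fenbuconazole, and TXNIP is low in both.

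Genes of the ATF4 pathway, through which cells answer amino acid shortage and endoplasmic reticulum stress, included 6 that fell at 10 µM fenbuconazole and none that passed in imazalil, and the difference between azoles passed for none of them. Of 13 stress regulators in this list, 12 had a change below 0 in each azole, with a median change of -0.10 in imazalil and -0.34 in fenbuconazole. In fenbuconazole 6 of them passed, all lower (TRIB3, DDIT4, ATF3, CHAC1, SESN2 and STC2), and in imazalil 0 passed, beside 0.339% of all genes lower in fenbuconazole and 0.0101% lower in imazalil. The change was higher in imazalil for 12 of the 13, with a median difference of 0.20, and 4 members did not overlap in that direction, against 4.94% of all genes. The list's median difference kept its sign in 20 alternative settings, from 0.07 with the common vehicle arrays as the reference to 0.24.

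TRIB3, a pseudokinase that restrains ATF4, had levels in imazalil from 8.33 through 8.70 to 9.11 at lower concentrations and 8.38, 8.65 and 8.24 at 10 µM. In fenbuconazole the levels ran from 7.37 through 7.77 to 8.29, and the 10 µM arrays lay below all of them at 7.0, 7.3 and 7.0 in replicates 1 to 3. Within replicates the change was -0.30, -0.37 and -0.30 in imazalil and -0.71, -0.88 and -0.63 in fenbuconazole. The difference of 0.42 ± 0.10 (95% interval 0.22 to 0.62) had an unadjusted p of 0.000112 and an adjusted p of 0.52 (limma). DDIT4, an inhibitor of the growth kinase mTORC1, changed by -0.18, -0.12 and -0.22 in imazalil and by -0.69, -0.55 and -0.43 in fenbuconazole. Its difference was 0.39 ± 0.09 (95% interval 0.21 to 0.56; adjusted p = 0.416, limma).

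The remaining stress regulators had wider or smaller differences. STC2, a secreted glycoprotein, differed by 0.46 (95% interval 0.18 to 0.73) without overlap, but its second probe set differed by 0.16 (95% interval -0.12 to 0.44). The transcription factor ATF3 differed by 0.25 (95% interval 0.06 to 0.44) and CHAC1, which degrades glutathione, by 0.20 (95% interval -0.03 to 0.43), both with overlapping replicates. DDIT3, the factor CHOP, had values of -0.05 in imazalil and -0.17 in fenbuconazole, neither of which passed.

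Enzymes of amino acid synthesis and mitochondrial one-carbon metabolism, which ATF4 also controls, included 5 of 14 measured members that fell in fenbuconazole (PCK2, ASNS, CTH, PSAT1 and MTHFD2), beside 0.339% of all genes, and 0 that passed in imazalil. The list's median change was -0.25 in fenbuconazole, with 13 values below 0, and -0.09 in imazalil, with 14 below 0. PCK2, the mitochondrial form of phosphoenolpyruvate carboxykinase, changed by -0.36, -0.46 and -0.13 in imazalil and by -0.52, -0.89 and -0.64 in fenbuconazole, and the difference was 0.36 (95% interval 0.13 to 0.60; adjusted p = 0.723, limma). ASNS, asparagine synthetase, differed by 0.24 (95% interval 0.05 to 0.43) with overlapping replicates. PSPH, the last enzyme of serine synthesis, differed by 0.37 (95% interval -0.02 to 0.76), and on a second probe set it passed in fenbuconazole at -0.53. The cystine carrier SLC7A11 was the 1 of 11 amino acid transporters that passed in fenbuconazole, at -0.42 (0.339% of all genes lower there), and it differed by 0.27 (95% interval 0.06 to 0.49). Among 17 aminoacyl-tRNA synthetases, each read on its brightest probe set, WARS1 was the 1 that passed in fenbuconazole, at -0.28 (against the same 0.339%). CARS1 passed there on a probe set outside the list. The list's median difference was 0.07.

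The fall of these genes in fenbuconazole was seen at 10 µM and not at 3 µM. At 3 µM, PCK2 stood at 0.30 ± 0.12 (SD, n = 3) above the mean of the lower concentrations, TRIB3 at 0.16 ± 0.12, DDIT4 at 0.15 ± 0.06 and ASNS at 0.15 ± 0.07. In imazalil at 3 µM, PCK2 stood at 0.01 ± 0.04 and TRIB3 at -0.05 ± 0.11. The 3 µM arrays are part of the reference here, and no probe set passed at 3 µM against the other 8 concentrations in either azole.

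**Figure D4:**
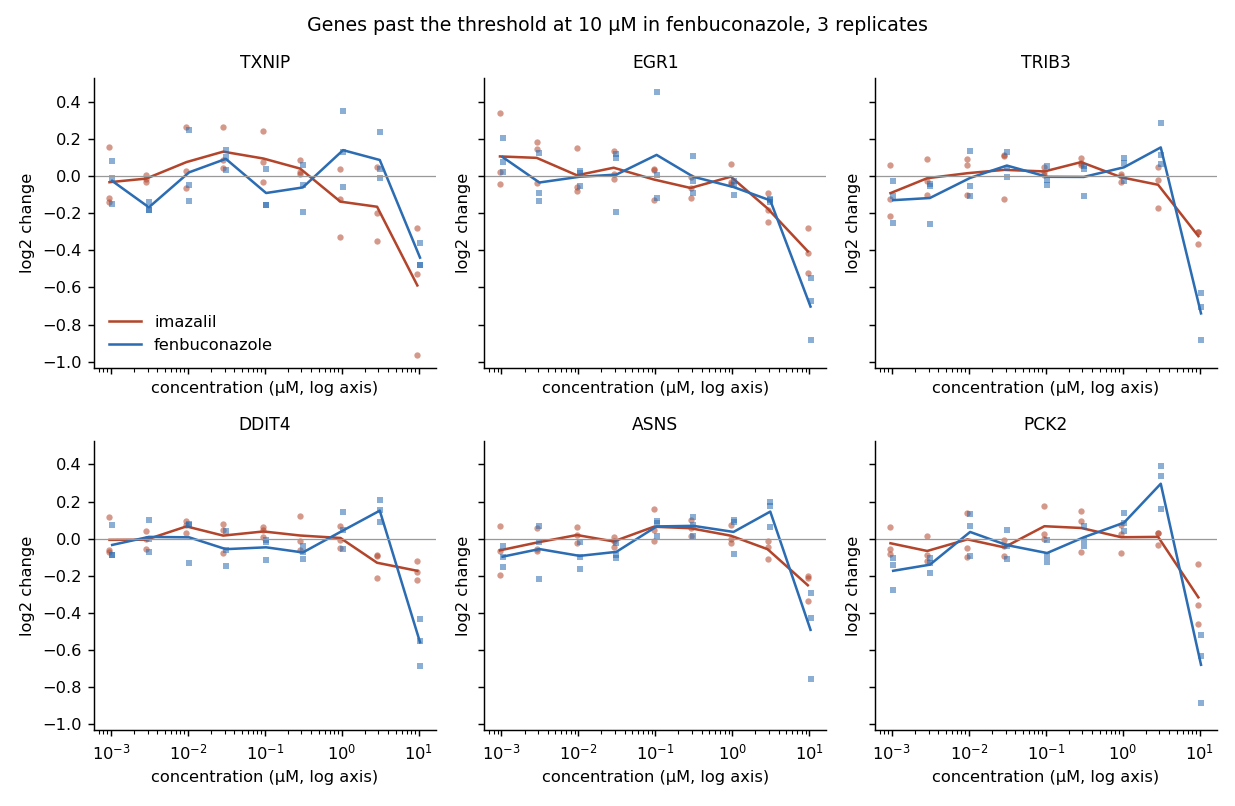
Log2 change of 6 genes against the concentration in µM on a log axis, relative to the mean of the same replicate's 8 lower concentrations, with points for the 3 replicates of each azole (imazalil circles, fenbuconazole squares) and lines for their means. TXNIP ends low in both azoles, and TRIB3, DDIT4, ASNS and PCK2 drop in fenbuconazole between 3 and 10 µM.

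The promoters of CHAC1, ASNS and ATF3 are shown because all of them passed in fenbuconazole and each held, before its first RefSeq start, the C/EBP-ATF element, in capitals, which ATF4 is known to bind in such genes. The element was held by 3.13% of the 35116 windows. It was not in the window before a second RefSeq start of ASNS or of ATF3, and not in the windows of TRIB3, DDIT4, PCK2 or STC2. The windows are chr15:40953221-40953470 on the plus strand, chr7:97872409-97872658 on the minus strand and chr1:212565157-212565406 on the plus strand (RefSeq, GRCh38.p14).
CHAC1: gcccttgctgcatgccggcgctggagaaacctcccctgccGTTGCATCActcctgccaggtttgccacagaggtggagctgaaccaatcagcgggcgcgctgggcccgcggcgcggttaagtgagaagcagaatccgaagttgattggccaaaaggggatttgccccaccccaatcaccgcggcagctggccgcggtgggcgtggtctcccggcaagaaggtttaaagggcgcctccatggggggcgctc
ASNS: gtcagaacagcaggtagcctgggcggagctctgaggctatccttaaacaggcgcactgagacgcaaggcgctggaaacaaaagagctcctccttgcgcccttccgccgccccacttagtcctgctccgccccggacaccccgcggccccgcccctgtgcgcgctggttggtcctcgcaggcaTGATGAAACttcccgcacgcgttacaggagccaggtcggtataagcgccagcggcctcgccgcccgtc
ATF3: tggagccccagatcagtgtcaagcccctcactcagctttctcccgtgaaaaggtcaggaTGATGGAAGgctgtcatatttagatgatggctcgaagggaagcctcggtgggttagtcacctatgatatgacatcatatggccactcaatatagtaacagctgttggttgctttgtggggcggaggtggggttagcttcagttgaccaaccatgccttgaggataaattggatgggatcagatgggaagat

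Genes of cholesterol synthesis and uptake were not found to differ between the azoles. Of 20 measured genes, 19 were higher at 10 µM in each azole, with a median change of 0.06 in imazalil and 0.13 in fenbuconazole. In either azole 0 of 20 passed, beside 0.0253% of all genes in imazalil and 0.425% in fenbuconazole. The change was lower in imazalil for 16 of the 20, with a median difference of -0.07 and 4 members that did not overlap in that direction (4.34% of all genes). The median stayed negative in 20 alternative settings (-0.08 to -0.03). CYP51A1, the human form of the enzyme that azole fungicides block in fungi, had levels of 9.69, 9.84 and 9.93 at 10 µM imazalil, within the range of 9.60 to 9.96 at lower concentrations. At 10 µM fenbuconazole its levels were 9.01, 9.26 and 9.01, of which replicate 2 lay above the range of 8.51 to 9.16. Its difference was -0.10 ± 0.09 (95% interval -0.29 to 0.08), which leaves room for a difference in either direction.

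Other sterol genes had similar intervals. The difference was -0.18 (95% interval -0.35 to -0.01) for EBP, a sterol isomerase, -0.21 (95% interval -0.55 to 0.12) for MVD and -0.07 (95% interval -0.23 to 0.09) for LSS, which closes the sterol rings. It was -0.07 for SQLE (95% interval -0.21 to 0.06), 0.03 for HMGCS1 (95% interval -0.19 to 0.24) and -0.13 for DHCR7 (95% interval -0.35 to 0.09). INSIG1, which holds SREBP back, rose in fenbuconazole on the probe sets 201625_PM_s_at (0.41) and 201627_PM_s_at (0.29), and gave 0.34 and 0.27 in imazalil, which did not pass. DHCR7 likewise passed in fenbuconazole on a second probe set, at 0.29 against 0.14 in imazalil. These probe sets were not the ones that stood for the genes in the list. Among 15 genes of fatty acid synthesis the median difference was -0.01, with -0.42 (95% interval -0.70 to -0.14) for ACACB, a mitochondrial acetyl-CoA carboxylase, and values near 0 for SREBF1 (0.05) and PNPLA3 (-0.02).

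Among genes known to respond to foreign compounds, no measured target of the aryl hydrocarbon receptor or of PXR and CAR passed in either azole. Of all genes, 0.0253% passed in imazalil and 0.425% in fenbuconazole. In the list of 8 aryl hydrocarbon receptor targets, CYP1A1 differed by 0.05 (95% interval -0.25 to 0.35) and CYP1B1 by 0.19 (95% interval -0.14 to 0.52). In the list of 9 PXR and CAR targets the difference was 0.08 (95% interval -0.18 to 0.33) for CYP3A4, -0.08 (95% interval -0.38 to 0.22) for CYP2B6, -0.07 (95% interval -0.29 to 0.14) for the efflux pump ABCB1 and 0.24 (95% interval -0.01 to 0.48) for ABCC2. At lower concentrations the mean levels of CYP1A1, CYP2B6 and ABCB1 lay between 2.40 and 3.41 in imazalil and between 2.04 and 2.95 in fenbuconazole. These levels are near or below the medians of the arrays. For oxidative stress and metals, HMOX1 differed by 0.13 (95% interval -0.18 to 0.44), NQO1 by 0.13 (95% interval -0.03 to 0.30), MT1X by -0.01 (95% interval -0.19 to 0.18) and MT2A by 0.04 (95% interval -0.09 to 0.17). SLC7A11, named above, was the 1 of 15 measured antioxidant targets of NRF2 that passed in fenbuconazole, where 0.339% of all genes passed as lower. None of the 15 passed in imazalil.

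**Figure D5:**
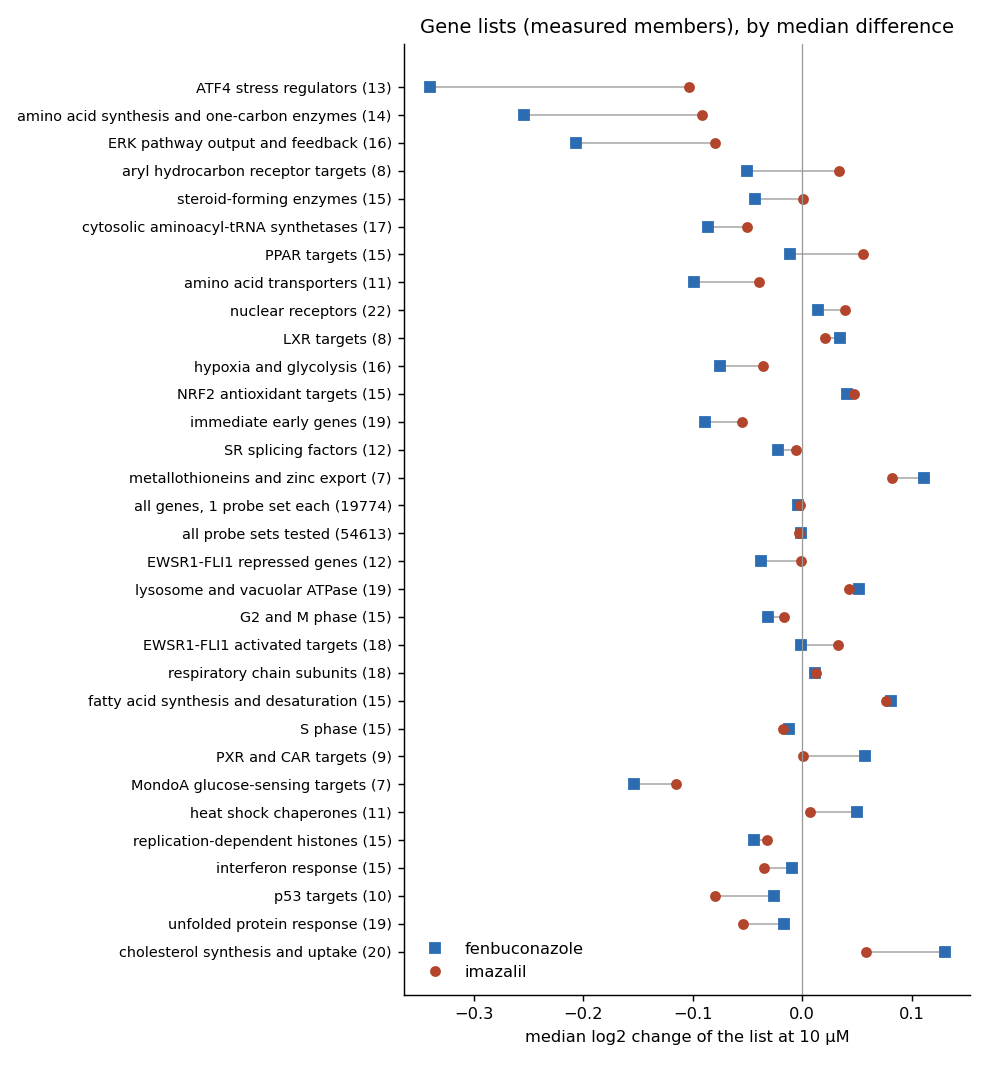
Median log2 change at 10 µM (horizontal axis) of the measured members of 30 gene lists, with all genes and all probe sets for comparison, in imazalil (circles) and fenbuconazole (squares), ordered by the median difference. The ATF4 stress regulators sit at -0.10 and -0.34, the cholesterol genes at 0.06 and 0.13, and all genes near 0 in both.

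In the remaining lists no member's difference passed. In the unfolded protein response HERPUD1, a part of protein degradation at the endoplasmic reticulum, passed in fenbuconazole at -0.27, as did XBP1 at -0.23, while the chaperone partner SDF2L1 had -0.11 in imazalil and 0.15 in fenbuconazole, a difference of -0.26 (95% interval -0.44 to -0.08). LOX, a collagen cross-linking enzyme that EWSR1-FLI1 represses, passed in fenbuconazole at -0.44 and stood at -0.05 in imazalil, a difference of 0.39 (95% interval 0.19 to 0.59; adjusted p = 0.52, limma). CCK, a gene that the fusion activates, passed in fenbuconazole at 0.41 (0.0860% of all genes higher there) and stood at 0.22 in imazalil. GLA, a lysosomal galactosidase, passed in fenbuconazole at 0.23 against 0.04. The chemokine CXCL10 differed by -0.42 (95% interval -0.68 to -0.17), NDRG1, a hypoxia gene, by 0.35 (95% interval 0.09 to 0.60) and KLF10 by 0.33 (95% interval 0.05 to 0.60). Lists of the cell cycle, p53 targets, histones, splicing factors, heat shock chaperones and respiratory chain had median differences between -0.05 and 0.01.

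Apart from CPT1A, the genes with the smallest p in the test of the difference did not pass. SNX29P2, a pseudogene, gave the largest value, 1.20 (95% interval 0.69 to 1.70; adjusted p = 0.219, limma), which came mainly from 1 array. Its change in imazalil was 0.52, 2.27 and 0.17 in replicates 1 to 3, and without replicate 2 at 10 µM the difference was 0.56. NUDC on probe set 210575_PM_at differed by -0.70 (95% interval -0.99 to -0.42; adjusted p = 0.143, limma), at levels near 3.05 and 2.61, but its brighter probe set 201173_PM_x_at differed by 0.00 (95% interval -0.16 to 0.16). Next in order were GRSF1, an RNA-binding protein, at 0.51, AP4E1, an adaptor subunit, at 0.36 and ABHD18 at -0.46, all of which passed in fenbuconazole alone (-0.48, -0.33 and 0.34). IKZF1, LINC02175, SEMA4A and CPLANE2 followed at -0.70, -0.58, -0.45 and -0.47, with mean levels between 2.27 and 3.30.

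Across all probe sets the tests at 10 µM found little else. At an unadjusted p under 0.05, 2944 probe sets (5.39%) differed between the azoles, where 0.05 of those tested is 2731. Of the 154 probe sets that passed in fenbuconazole, 130 (84.4%) had the same sign in imazalil, and 0 of the 154 differed between azoles in the test. Of the 15 that passed in imazalil, 9 (60.0%) had the same sign in fenbuconazole, against 54.7% of all 54613. Besides CPT1A, TXNIP and EGR1 they included SNX29P2, MYLK3, ANKRD30B and RORA, higher, and CPLANE2, lower, with mean levels between 2.58 and 3.03 at the lower concentrations of imazalil. RORA rose by 0.42 on a dim probe set, 210426_PM_x_at, while the probe set that stood for the gene, 240163_PM_at, gave 0.18. In fenbuconazole the largest rises with a symbol beyond those named were SQOR (0.46) and the dim probe sets of CASQ2, SLC66A3, SRSF11, ADGRF1, OR7C1 and SOX2 (0.43 to 0.47), and the largest falls were SNX19, LINC00662, PTX3 and ZNF354C (-0.74 to -0.62). Brighter probe sets of SRSF11 and SOX2 gave -0.05 and -0.03 in fenbuconazole.

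At the 8 lower concentrations, where each was set against the other 8, no probe set passed the test of the difference between azoles (0.00%, limma). The number with an unadjusted p under 0.05 ranged from 1765 at 0.3 µM to 3586 at 0.1 µM, beside 2944 at 10 µM. The 10 µM arrays are part of the reference in these tests. Without replicate 1, 14 probe sets passed when summed over the 8 concentrations. In fenbuconazole taken alone, 1, 4 and 3 of 54613 probe sets passed at 0.001, 0.01 and 0.03 µM against the other 8 concentrations. In imazalil taken alone no probe set passed at these 3 concentrations. At an unadjusted p under 0.05, 5150 probe sets changed in fenbuconazole at 0.01 µM, beside 4707 at 10 µM.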

How the data were processed

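RNA from A673 cells had been hybridised by the authors to Affymetrix HT HG-U133+ PM arrays, and the deposited values are log2 signals that the authors made by RMA with background correction and quantile normalization. RMA had been run on each chemical's 30 columns separately, so levels were not compared between sets. The version of RMA and that of Partek, which the submitters' processing notes also name, are not given in the sources used here. Arrays carry no count depth, and their number limits the precision.

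The 54 arrays of imazalil and fenbuconazole were fitted with limma 3.58.1 in R 4.3.3 over 54613 probe sets, after 102 control probe sets were left out, with 46 residual degrees of freedom. For each azole the mean at 10 µM was set against the mean of its 8 lower concentrations, and the difference of these changes is the interaction. Chemical set by replicate number entered as a block of 6 levels. The study's methods describe replicates as experiments on separate batches of cells, and each number holds 1 series of serial numbers. The numbers were therefore taken as the batches, though neither the methods nor the labels tie a number to a batch. Deviations of arrays from their group means correlated by a mean of 0.07 within a number in imazalil and 0.05 in fenbuconazole (minima -0.08 and -0.14), against -0.04 and -0.03 between numbers, and 26 of 27 imazalil and 24 of 27 fenbuconazole arrays had their best match within their number. P-values were adjusted by Benjamini-Hochberg over all probe sets, with a threshold of 0.05, and intervals are 95% intervals of the fit.

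Symbols came from the platform's annotation, in which 40914 probe sets have 1 symbol, 864 several and 12835 none. In lists each of 19774 genes was read on its brightest probe set across the 54 arrays. Genes with 1 symbol were named by a rule: for the difference, up to 10 per direction past the threshold by size, or 6 per direction by smallest p where fewer passed; for each azole, up to 8 per direction past the threshold by size, or 4 by smallest p; for the slope difference, up to 4 per direction past the threshold; in each list, the 2 members with the largest difference; and a fixed set of sterol, PPAR, ERK, ATF4 and foreign compound genes. Other list members that passed, and other probe sets of these genes, were named after their values were seen. The comparison, its genes and the lists were chosen with earlier results of these data known. Promoters came from RefSeq (GRCh38.p14), where all 11 genes looked up were found. The 3 vehicle arrays, normalized again with each set, served only as an alternative reference. They were left out of the main fit because the vehicle columns of the sets were held to be in doubt. Values given against them carry that doubt. The 20 alternatives covered the block, the reference, normalization, filters, variance models and single replicates. The fit was tested on simulated data first. There, 40.0% of 50 true log2 differences of 0.5 were recovered and 96.0% of 50 differences of 1, with 11 false calls in all. Differences near 0.5 or below that did not pass can thus have been missed.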

Additional observations from a re-analysis of the deposited data

Results flagged for a closer look

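CPT1A (203633_PM_at) drew attention because its change at 10 µM differed between the azoles in the test of the difference itself, by 0.71 on the log2 scale (95% interval 0.45 to 0.97), higher in imazalil in 3 of 3 replicates. Its slope on concentration differed as well, by 0.18 per 10-fold step. Both values come from the same arrays. The order of the serial numbers in the labels moved with concentration, and its part in the result was not tested.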

How the results depend on the processing

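With 3 arrays per azole at 10 µM, the counts of probe sets past the threshold were not stable. The replicate numbers were taken to pair arrays by batch of cells, which the labels do not state. Without the replicate block the counts were 0 for the difference, 12 in imazalil, 63 in fenbuconazole and 0 for the slope difference, against 1, 15, 154 and 1 with it.

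For the difference, the count was 2 with the 6 lowest concentrations as reference, 0 after a second quantile normalization, 0 with array weights, 0 with a separate variance per azole and 0 to 2 with replicates left out. In imazalil it was 2 against the common vehicle arrays, which both azoles share, 9 after the second normalization, 7 without dim probe sets, 7 with 1 probe set per gene, 25 with separate variances and 1 to 45 with replicates left out. In fenbuconazole it was 31 against the vehicle arrays, 93 with array weights, 83 with separate variances and 19 to 2.2e+02 (rounded) with replicates left out. Without replicate number 2, it was 3 in imazalil and 19 in fenbuconazole, and without number 3 it was 34 and 58. At the lower concentrations it was 1 after the second normalization, 1 with equal array medians, 1 without dim probe sets and 0 to 14 with replicates left out. For the slope difference it was 0 to 1 with replicates left out. The causes were not tested.

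CPT1A kept its sign in all 20 settings. Of 120 probe sets followed, 28 changed the sign of their difference in some setting, and of 30 list medians 19 did. Against the vehicle arrays the difference was 0.026 for ABCA1, -0.012 for ANKRD30B, -0.093 for CYP1B1, 0.067 for CYP2B6, 0.056 for DHCR7, 0.072 for EGR1 (201693_PM_s_at), -0.030 for HMGCS1, 0.17 for MVD, -0.089 for NUDC (201173_PM_x_at), -0.10 for PDK4 and -0.40 for RORA (240163_PM_at). With the 6 lowest concentrations as reference it was 0.0014 for INSIG1. After the second normalization it was 0.0029 for INSIG1, 0.0017 for MT1X and -0.0051 for NUDC (201173_PM_x_at). With equal medians it was 0.0090 for EGR1 (201693_PM_s_at), 0.020 for INSIG1, 0.014 for MT1X and 3e-04 for PNPLA3. With array weights it was 0.018 for INSIG1.

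With replicates left out, the difference ranged from -0.014 to 0.48 for AHRR, -0.16 to 0.19 for ANGPTL4, -0.053 to 0.16 for CYP1A1, -0.055 to 0.34 for HMOX1, -0.13 to 0.11 for INSIG1, -0.081 to 0.19 for PDK4, -0.080 to 0.055 for PLIN2, -0.076 to 0.14 for SREBF1, -0.30 to 0.037 for TXNIP (201010_PM_s_at) and -0.14 to 0.024 for ABCB1. It ranged from -0.27 to 0.090 for CYP2B6, -0.12 to 0.17 for EGR3, -0.31 to 0.018 for ETV4, -0.031 to 0.041 for MT1X, -0.16 to 0.063 for PNPLA3, -0.12 to 0.27 for RORA (240163_PM_at) and -0.20 to 0.27 for ARRDC4, and from -0.14 to 0.24 for EGR1 (201693_PM_s_at), -0.029 to 0.096 for HMGCS1, -0.092 to 0.081 for NUDC (201173_PM_x_at), -0.032 to 0.25 for SPRY4, -0.098 to 0.26 for TOP2A and -0.16 to 0.0031 for MT1E.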
